A study of Mus musculus with 24 samples.

Results

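The genes described here are the semaphorins, plexins and neuropilins of mouse efferent and afferent nerve fibres. They were taken from the array by name, as every gene probe whose gene name begins with Sema3 to Sema7 or with Plxna to Plxnd, or is Nrp1 or Nrp2. The rule found 33 gene names of 37074 on the array: 20 semaphorins, 9 plexins, 2 neuropilins and 2 RNAs named as opposite-strand transcripts of Plxna4, Plxna4os1 and Plxna4os2. Each gene was followed through its brightest probe over all arrays, and the values are log2 normalized signals. Plxna4os1 and Plxna4os2 were well above background on 1 array each of 24 and were not tested, which leaves 31 genes. No other gene was below background on all 3 arrays of a group, except Sema3a in efferent fibres at 5 W. The name alone chose the genes, and the mean signal chose the probe.

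RNA came from the efferent fibres of the ventral roots (EN) and the afferent fibres of the dorsal roots (AN) at lumbar levels L4 to L6 of C57BL/6 mice. The mice were newborn (P0) or 1, 3 or 5 weeks old (1 W, 3 W, 5 W), and the sources used here name no mutation, transgene or treatment in any group. Each of the 8 groups had 3 arrays from 3 independent experiments, and the study states 9 animals at each age. Which animals were pooled into which array is not given in the sources used here, so the p-values measure only the spread between these RNA preparations, which may be technical.

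Semaphorins are secreted or membrane-bound guidance proteins, best known for turning growing axons away. Plexins are their transmembrane receptors, which act on the cytoskeleton through small GTPases. The secreted class 3 semaphorins mostly need a neuropilin to bind: Nrp1 for Sema3a and Nrp2 for Sema3f, whereas Sema3e binds Plxnd1 directly. Classes 4 to 7 are held at the membrane, with Sema4d and Plxnb1, Sema6 proteins and class A plexins, and Sema7a and Plxnc1 as known pairs. In nerves they are known from axon growth, from blood vessels and from Schwann cells, the glia that ensheathe and myelinate axons.

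The roots are mixed tissue, and a lower signal can mean fewer cells of a type or less RNA per cell, which bulk RNA cannot tell apart. The median signal of 11 myelinating Schwann cell markers (among them Mbp, Mag and Prx), all of them found above background, was between 13.97 and 15.42 on the P0 arrays and between 16.67 and 17.13 on the 5 W arrays. The median of 20 sensory neuron markers lay between 10.01 and 10.61 on the EN arrays at P0, inside the range of 9.83 to 11.44 on the AN arrays at P0. From 1 W on it was 7.40 to 8.59 on the EN arrays. On the AN arrays it was 10.97 to 11.26 at 1 W, but 8.86, 8.78 and 12.02 at 3 W and 10.26, 8.93 and 7.85 at 5 W for replicates 1, 2 and 3. The third AN array at 3 W therefore stands apart from its group, and a result that rests on it is given with and without it. Motor neuron markers were not higher in EN as a list. Mnx1 was above background on no array, and the median of the 11 markers at 1 W was 7.59 to 7.85 in AN against 6.48 to 7.57 in EN (exact permutation p = 0.1, two-sided, the smallest that 3 arrays against 3 allow). Of the 10 tested, Isl2, Ache, Prph and Ret were higher in AN at 1 W, and Uts2, the gene of a urotensin peptide, was lower in AN at 1, 3 and 5 W. Prph also stands in the list of sensory neuron markers.

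Between P0 and 5 W the semaphorin system changed on both sides of the ligand and receptor pairs. In EN, the test against P0 called 11 of the 31 genes at 1 W, then 24 and 23 at the later ages, where 27.1%, 55.0% and 54.1% of all tested probes were called. In AN the counts were 12, 25 and 21 of 31, against 21.7%, 51.7% and 50.6% of all tested probes. A call here is an adjusted p below 0.05 from limma. As a share of the 31 genes the counts are 35.5%, 77.4% and 74.2% in EN and 38.7%, 80.6% and 67.7% in AN, above the share of all probes at every age, although each gene entered through its brightest probe and the whole array did not. Taken over the 6 comparisons with P0, 13 genes only rose where they were called, 14 only fell, Sema3f and Sema6d did both, and Plxna2 and Plxnc1 were called in none.

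**Figure D1:**
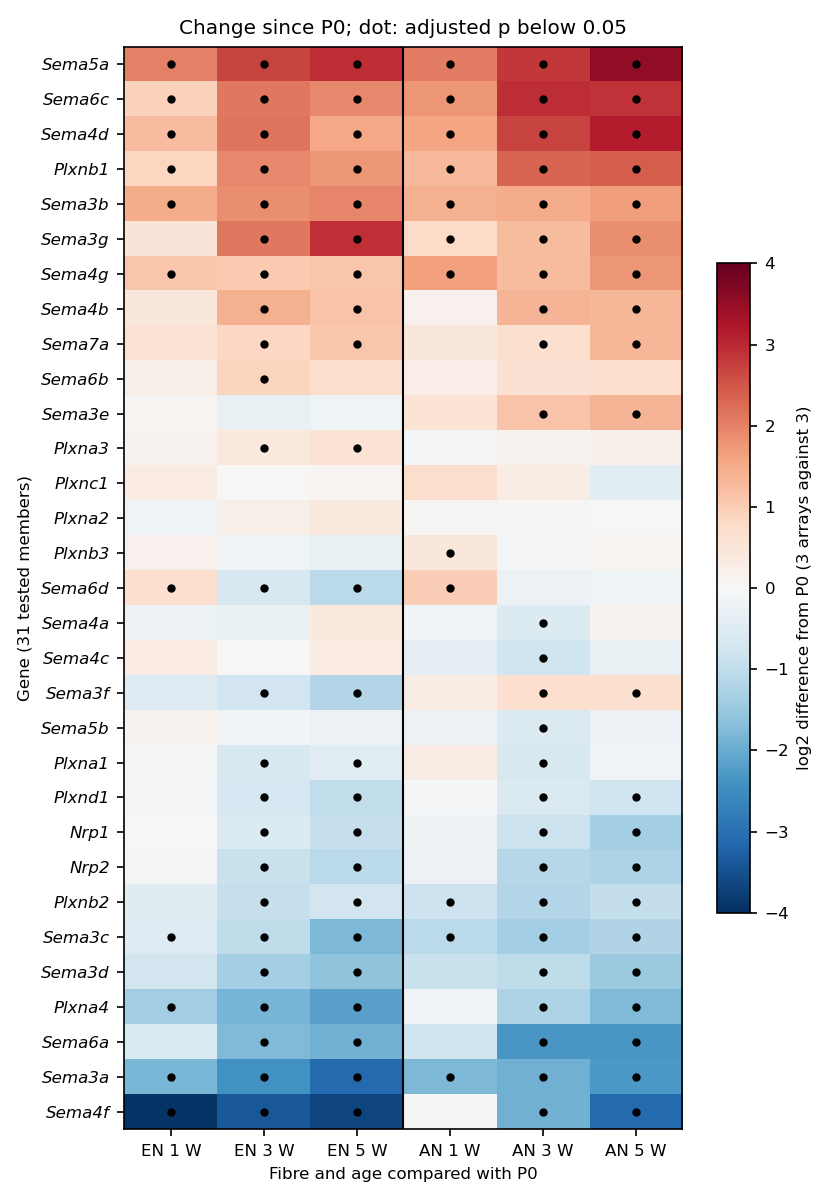
Difference in log2 signal from P0 for the 31 tested genes (rows, ordered by their mean difference) in EN and AN at 1 W, 3 W and 5 W (columns). Colour gives the difference of 3 arrays against 3 and a dot an adjusted p below 0.05; Sema5a at the top reaches 3.54 in AN at 5 W and Sema4f at the bottom −3.93 in EN at 1 W.

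The genes called higher in all 6 comparisons with P0 were Sema3b, Sema4d, Sema4g, Sema5a, Sema6c and Plxnb1. Sema5a, a transmembrane semaphorin with thrombospondin repeats, had the largest rise at 5 W in both fibres through its brightest probe. Its signal on the EN arrays was 12.32, 11.74 and 12.03 at P0 and 14.80, 15.11 and 15.00 at 5 W. On the AN arrays it was 11.45, 11.37 and 11.50 at P0 and 14.80, 15.16 and 14.97 at 5 W. The P0 and 5 W arrays did not overlap in either fibre, and the log2 differences at 5 W were 2.94 ± 0.17 in EN and 3.54 ± 0.17 in AN (difference ± SE, n = 3 against 3; adjusted p = 1.29e-10 and 1.27e-11). Most of the change had taken place by 1 W, at 2.03 in EN and 2.06 in AN.

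Sema6c, a membrane-bound class 6 semaphorin, rose by 0.91, 2.11 and 1.91 in EN at 1, 3 and 5 W and by 1.77, 2.95 and 2.89 in AN. Plxnb1, the receptor of Sema4d, rose by 0.87, 1.92 and 1.76 in EN and by 1.30, 2.34 and 2.43 in AN, each with an SE of 0.19. On the AN arrays Plxnb1 went from 10.32, 10.72 and 10.48 at P0 to 12.64, 13.03 and 13.15 at 5 W. Sema3b, a secreted class 3 semaphorin, rose by 1.47, 1.85 and 1.96 in EN and by 1.42, 1.48 and 1.68 in AN. AN replicate 3 at 5 W, at 15.39, was close to the P0 arrays at 14.86 to 15.22, while replicates 1 and 2 were at 17.46 and 17.23. Sema4g, which like Sema4c is a ligand of Plxnb2, rose by 1.04 to 1.11 in EN at the 3 ages and by 1.64, 1.27 and 1.77 in AN.

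Sema3g, Sema4b and Sema7a also rose, mostly from 3 W on. Sema3g, a class 3 semaphorin known from blood vessels, reached 13.83, 14.23 and 14.00 on the EN arrays at 5 W from 11.49, 11.17 and 10.64 at P0, a difference of 2.92 ± 0.20 (adjusted p = 1.21e-09). Its rise in AN was 0.76 at 1 W (adjusted p = 0.0113) and 1.87 ± 0.20 at 5 W, and the former was 0.56 without the third AN array at P0 (adjusted p = 0.0839). In EN its difference at 1 W was 0.51 and did not pass. A second Sema3g probe gave 0.05 in AN at 1 W and 0.87 in AN at 3 W, neither past the test (adjusted p = 0.952 and 0.114). Sema4b rose from 3 W on, by 1.42 and 1.15 in EN and 1.36 and 1.34 in AN. Sema7a, the class 7 semaphorin anchored to the membrane by a lipid, rose by 0.84 and 1.11 in EN and 0.63 and 1.32 in AN at 3 and 5 W. Its call in AN at 3 W was lost without AN replicates 1 or 3 of P0 or of 3 W, at 0.48 to 0.57 (adjusted p = 0.0801 to 0.128). Sema6b passed the test in EN at 3 W alone, at 0.89 ± 0.31, and with the slide as a block its difference was −0.10 (adjusted p = 0.822).

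Among the ligands that fell was Sema3a, the class 3 semaphorin that binds Nrp1 and collapses sensory growth cones. Sema3a was at 7.43, 7.32 and 7.02 on the EN arrays at P0 and 7.48, 7.58 and 7.53 on the AN arrays. At 5 W it was at 3.90, 4.38 and 4.19 in EN, where no array was well above background, and at 5.12, 5.91 and 4.63 in AN, where 2 of 3 were. EN at P0 was thus at least 4.65-fold above EN at 5 W, and in AN the log2 difference was −2.31 ± 0.35 (adjusted p = 2.04e-05). The fall was already −1.83 in EN and −1.79 in AN at 1 W. A second, dimmer Sema3a probe was called lower in the same 6 comparisons, by 2.14 on the log2 scale in AN at 1 W and at least 1.97-fold in the 5 others, where no array of the later group was well above background.

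Sema3c, which signals through neuropilins and Plxnd1, fell in all 6 comparisons, by 0.51, 1.01 and 1.78 in EN and by 1.09, 1.35 and 1.21 in AN at 1, 3 and 5 W. The EN call at 1 W was lost without the filter on dim probes (adjusted p = 0.0508), with 75th percentile scaling (−0.43, adjusted p = 0.112) and without any one of the 6 arrays but EN replicate 2 of P0, at −0.57 to −0.37 (adjusted p = 0.0556 to 0.16). A second Sema3c probe gave −0.72 in AN at 3 W (adjusted p = 0.0655). Sema3d, another class 3 semaphorin, fell at 3 and 5 W by 1.37 and 1.59 in EN and by 1.01 and 1.48 in AN. The AN call at 3 W was lost with the slide as a block (−0.79, adjusted p = 0.214). It was also lost without AN replicate 3 of P0 or AN replicates 1 or 2 of 3 W, at −0.94 to −0.62 (adjusted p = 0.0518 to 0.121). Sema6a, a class 6 ligand of class A plexins, fell at 3 and 5 W by 1.76 and 1.92 in EN and by 2.34 and 2.32 in AN. Sema6d passed through a peak in EN, with a rise of 0.67 ± 0.19 at 1 W and a fall of 1.09 ± 0.19 at 5 W. The call at 1 W was lost without EN replicates 1 or 2 of that age (0.60 and 0.61, adjusted p = 0.0541 and 0.0507). In AN Sema6d rose by 0.97 at 1 W and differed from P0 by −0.17 ± 0.19 at 5 W (adjusted p = 0.463).

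Both neuropilins fell late. Nrp1 was at 12.99, 13.23 and 12.81 on the EN arrays at P0 and at 12.20, 12.03 and 12.04 at 5 W, and in AN it went from 13.20, 13.39 and 13.12 to 11.89, 11.83 and 11.95. The groups did not overlap, with log2 differences at 5 W of −0.92 ± 0.13 in EN and −1.35 ± 0.13 in AN (adjusted p = 8.99e-06 and 8.54e-08). At 1 W they were −0.03 in EN and −0.20 in AN, neither past the test. Nrp2 fell by 0.90 and 1.07 in EN and by 1.14 and 1.22 in AN at 3 and 5 W through its brightest probe.

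Among the 9 plexins, 4 only fell where called, 3 only rose and Plxna2 and Plxnc1 passed no test. Plxnd1, the receptor of Sema3e, fell at 3 and 5 W by 0.68 and 0.97 in EN and by 0.57 and 0.79 in AN. Plxnb2 fell by 0.92 and 0.74 in EN and by 1.18 and 0.96 in AN at the same ages, and in AN by 0.84 already at 1 W. Plxna1 fell by 0.65 in both fibres at 3 W and by 0.46 in EN at 5 W. Plxna4, a co-receptor for Sema3a and a receptor for Sema6a, fell by 1.38, 1.87 and 2.16 in EN and by 1.25 and 1.78 in AN at 3 and 5 W. The EN call at 1 W was lost without the filter on dim probes (adjusted p = 0.0524), with the slide as a block (−1.14, adjusted p = 0.0643) and without EN replicates 2 or 3 of P0 or 1 or 2 of 1 W, at −1.31 to −1.26 (adjusted p = 0.0943 to 0.105). Plxna3 rose in EN by 0.41 and 0.54 at 3 and 5 W, and Plxnb3 rose in AN at 1 W by 0.46 ± 0.15. These small changes and that of Plxna1 in EN at 5 W were close to the threshold. Without the filter, Plxna3 in EN at 3 W, Plxnb3 and Plxna1 at 5 W did not pass (adjusted p = 0.0656, 0.0501 and 0.0607). Leaving out 1 array lost the call of Plxna3 at 3 W in 4 of 6 cases (0.32 to 0.39, adjusted p = 0.109 to 0.168) and at 5 W in 2, that of Plxnb3 in 5 of 6 (0.38 to 0.49, adjusted p = 0.0677 to 0.128) and that of Plxna1 at 5 W in 5 of 6 (−0.51 to −0.30, adjusted p = 0.056 to 0.218). For Plxna2 the 95% interval of the difference in AN at 5 W ran from −0.52 to 0.54, so that a change of up to about that size was not detectable with 3 arrays a group.

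The slides bear on these courses because all 3 W arrays lay on a slide with no P0 array. On the slides that held both ages, every one of the 11 genes called in EN and of the 12 called in AN at 1 W had the same sign on slide 1 and on slide 3, and so had the 23 and 21 genes called at 5 W on slide 3. With the slide as a block, the count in AN at 3 W went from 25 to 16, and Sema3e (0.57, adjusted p = 0.0741), Sema3f (0.23, adjusted p = 0.45), Sema4f, Plxna1 and Plxna4 were among those that no longer passed. In EN at 3 W the count went from 24 to 19, and Plxna1 (−0.37, adjusted p = 0.233), Plxna3 (0.39, 0.26), Sema3d (−1.14, 0.0687), Sema4f (−2.93, 0.0633) and Sema6d (−0.21, 0.484) no longer passed there. The share of all tested probes that passed with the slide as a block is not given here, so the lower counts cannot be read as particular to these genes. At 5 W the Sema3f difference in AN was 0.40 with this block (adjusted p = 0.055).

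At any one age the test of AN against EN called few of these genes. Of the 31 genes 3 passed at birth, then 3, 3 and 6 at the later ages, and 9 did so at 1 age or more. Of all tested probes, 0.739%, 4.0%, 5.89% and 6.76% passed in the same order of ages. As a share of the 31 genes the counts are 9.68%, 9.68%, 9.68% and 19.4%. These lie above the share of all probes at every age, although each gene entered through its brightest probe and the whole array did not. This test did not pair AN with EN arrays, and the larger counts with pairs are given further below. Sema3e and Sema3f were higher in AN at 1, 3 and 5 W, Sema3c at P0 and 5 W, Sema4f at 1 W, and Sema4d and Plxnd1 at 5 W. Sema6c was lower in AN at P0, Sema4g at P0 and 3 W, and Sema3g at 5 W. The median difference over the 31 genes stayed between 0.02 and 0.18, against −0.06 to 0.01 over all tested probes.

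**Figure D2:**
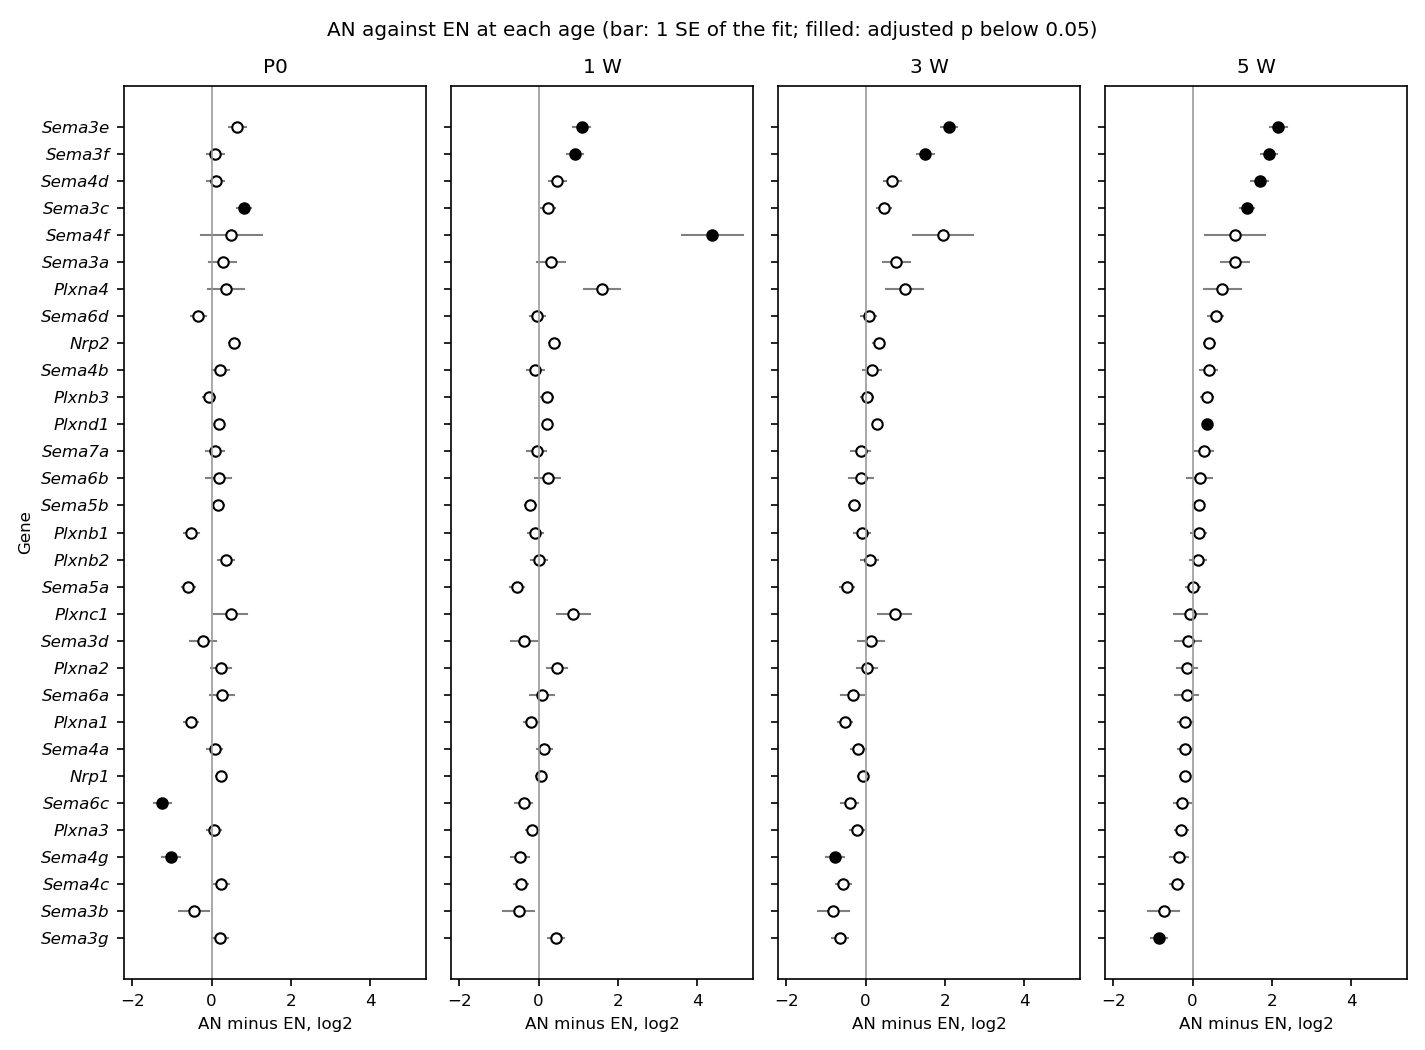
AN minus EN in log2 signal for the 31 genes (rows, ordered by the 5 W value), with a panel for each age. Bars are 1 SE of the fit (3 arrays against 3) and filled points passed at an adjusted p below 0.05; at 5 W the filled points of Sema3e, Sema3f, Sema4d and Sema3c lie between 1.38 and 2.15, and that of Sema3g at −0.86.

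Sema3e, the secreted ligand of Plxnd1, gave the clearest contrast. On the EN arrays it stayed between 6.22 and 6.95 at every age. On the AN arrays it was at 7.01, 7.61 and 7.22 at P0, at 7.59, 7.96 and 7.89 at 1 W, at 8.25, 8.18 and 8.84 at 3 W and at 8.71, 8.46 and 8.73 at 5 W. No AN array overlapped the EN arrays of its age. The log2 differences were 0.64 ± 0.21 at P0 (adjusted p = 0.261), 1.09 at 1 W (0.00679), 2.10 at 3 W (1.01e-05) and 2.15 at 5 W (5.8e-06), or 4.45-fold at 5 W, and each of the 3 numbered pairs was higher in AN at every age. With AN and EN of a number treated as a pair, the P0 difference passed as well (adjusted p = 0.0497).

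The change came from AN, where Sema3e rose by 1.15 at 3 W and 1.35 at 5 W, while EN differed from P0 by −0.31 and −0.16 with no call. The difference between the fibres itself grew, by 1.46 ± 0.30 from P0 to 3 W (adjusted p = 0.0317) and by 1.51 ± 0.30 from P0 to 5 W (adjusted p = 0.017). Such a change in the fibre difference passed for 2 of the 31 genes at 3 W and 3 at 5 W, where 0.615% and 1.14% of all tested probes passed, and by limma for 0 at 1 W, where 0.0632% did; 5 of the 31 had an unadjusted p below 0.05 at 1 W. Without the third AN array at 3 W the Sema3e difference at 3 W was 1.89 (adjusted p = 5.82e-05), and its growth since P0 was 1.25 (adjusted p = 0.0591). The growth to 3 W also missed the threshold without any one EN array of 3 W, without EN replicates 2 or 3 of P0 and without AN replicates 1 or 3 of P0, at 1.32 to 1.49 (adjusted p = 0.0656 to 0.0898).

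Sema3f, the secreted ligand of Nrp2, gave no call between the fibres at birth, at 11.13, 11.33 and 10.69 in AN and 11.10, 10.97 and 10.80 in EN. By 5 W it was at 11.82, 11.36 and 11.91 in AN and at 10.02, 9.38 and 9.93 in EN. It moved in opposite directions, up by 0.65 ± 0.21 in AN and down by 1.18 ± 0.21 in EN from P0 to 5 W (adjusted p = 0.0136 and 9.26e-05). The rise in AN was 0.47 without AN replicate 3 of P0 and 0.54 without AN replicate 3 of 5 W (adjusted p = 0.0896 and 0.0624). AN was above EN on every array from 1 W on, by 0.92 at 1 W, 1.51 at 3 W and 1.92 at 5 W (adjusted p = 0.0141, 0.00021 and 1.66e-05). The difference grew from P0 by 1.41 at 3 W and 1.83 ± 0.29 at 5 W (adjusted p = 0.0323 and 0.00414). A second Sema3f probe gave 1.30 at 3 W and 1.72 at 5 W between the fibres and a fall of 1.57 in EN at 5 W, but in AN a difference of 0.33 that did not pass (adjusted p = 0.111), so the rise in AN rests on the brighter probe. Without the third AN array at 3 W the rise in AN at 3 W was 0.50 (adjusted p = 0.0641), and the growth of the fibre difference 1.26 (adjusted p = 0.0658). That growth also lost its call without AN replicate 3 or EN replicates 1 or 2 of P0, AN replicate 1 of 3 W or any one EN array of 3 W, at 1.24 to 1.46 (adjusted p = 0.0502 to 0.101). The difference at 1 W lost its call without AN replicates 1 or 2 or EN replicates 1 or 3 of that age, at 0.81 to 0.93 (adjusted p = 0.0567 to 0.0731).

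The Sema3f probe lies at chr9:107583833-107583892 of mm9, close to that of Sema3b at chr9:107500686-107500745, whose AN minus EN difference at 5 W was −0.73 and did not pass the test. On chromosome 5 the probes of Sema3d, Sema3a, Sema3e and Sema3c follow one another between positions 12588784 and 17236040. Of these, Sema3a and Sema3d fell in both fibres with no call between them, Sema3e rose in AN alone, and Sema3c fell in both.

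Sema3c was higher in AN at birth, at 12.40, 12.35 and 12.23 against 11.81, 11.34 and 11.42 in EN (0.80 ± 0.17, adjusted p = 0.0377). At 1 W the fibres lay closer, at 11.14 to 11.35 in AN and 10.99 to 11.03 in EN, a difference of 0.23 that did not pass. At 5 W AN was at 11.25, 10.74 and 11.34 and EN at 10.07, 9.49 and 9.65, a difference of 1.38 ± 0.17 (adjusted p = 8.96e-05). The call at P0 was lost when the filter on dim probes was dropped (adjusted p = 0.0564) and when the scanner signals were scaled to their 75th percentile (0.73, adjusted p = 0.137). A second Sema3c probe gave 0.60 at P0 (adjusted p = 0.789). The call was also lost on leaving out any P0 array but EN replicate 1, at 0.71 to 0.85 (adjusted p = 0.0888 to 0.165).

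Plxnd1, the receptor that Sema3e and Sema3c share, was at 13.54, 13.34 and 13.56 in AN and 13.14, 13.12 and 13.11 in EN at 5 W. Its groups did not overlap, though the difference was small, at 0.36 ± 0.10 (adjusted p = 0.0352). With 75th percentile scaling of the scanner signals it was 0.25 (adjusted p = 0.306), and the other Plxnd1 probe gave 0.14 (adjusted p = 0.651). Without any 5 W array but AN replicate 2 the difference was 0.32 to 0.36 and did not pass (adjusted p = 0.0698 to 0.0995).

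Sema3g ran the other way. At 3 W it was at 12.66, 12.72 and 12.34 in AN and 13.22, 13.14 and 13.26 in EN, and at 5 W at 12.93, 13.31 and 13.26 in AN and 13.83, 14.23 and 14.00 in EN. The log2 difference was −0.64 ± 0.20 at 3 W (adjusted p = 0.0738, and 0.00222 with the numbered pairs as a block) and −0.86 ± 0.20 at 5 W (adjusted p = 0.0144). Without AN replicate 1 or EN replicate 2 the 5 W difference was −0.74 and −0.75 (adjusted p = 0.0618 and 0.0648). Its change since P0 was −1.05 at 5 W (adjusted p = 0.0914, and 0.00377 with the block). A second Sema3g probe gave −1.38 between the fibres at 5 W and did not pass (adjusted p = 0.0738). At 1 W Sema3g was at 12.03 to 12.07 in AN and 11.54 to 11.66 in EN. The 12 endothelial markers had a median signal of 11.24 to 11.38 in AN and 11.82 to 11.84 in EN at 1 W, the opposite order to that of Sema3g, of 10.73 to 10.88 in AN and 11.29 to 11.47 in EN at 3 W and of 11.05 to 11.31 and 11.39 to 11.45 at 5 W. From P0 to 5 W in AN, 3 of the 12 rose and 4 fell, with a median of −0.26, where 50.6% of all tested probes were called. In EN the median signal of the 12 markers was 11.09, 11.04 and 10.60 at P0 and 11.45, 11.39 and 11.43 at 5 W. Their part in the Sema3g difference was not tested.

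Sema6c and Sema4g separated the fibres at birth. Sema6c was at 11.22, 10.99 and 10.98 in AN and 12.18, 12.67 and 12.07 in EN at P0, a difference of −1.25 ± 0.21 or 2.37-fold (adjusted p = 0.0087). From 1 W on the difference was between −0.40 and −0.26 and did not pass. Sema4g was at 10.64, 10.10 and 10.34 in AN and 11.49, 11.35 and 11.29 in EN at P0 (−1.01 ± 0.23, adjusted p = 0.0451), and at 11.92, 11.93 and 11.05 against 12.40, 12.39 and 12.45 at 3 W (−0.78 ± 0.23, adjusted p = 0.0495). Without AN replicate 2 at P0 the Sema6c difference was −1.21 (adjusted p = 0.0503), and without any P0 array but AN replicate 1 the Sema4g difference was −0.88 to −1.06 (adjusted p = 0.104 to 0.242). At 3 W the Sema4g difference was −0.49 without the third AN array (adjusted p = 0.244) and −0.76 to −0.79 without any one EN array (adjusted p = 0.119 to 0.144), and without the filter on dim probes neither Sema4g call held (adjusted p = 0.0692 at P0 and 0.0761 at 3 W). With 75th percentile scaling the Sema4g difference at P0 was −0.99 (adjusted p = 0.089). Second probes of both genes were lower in AN at P0 too, by −0.96 for Sema6c and −1.11 for Sema4g (adjusted p = 0.0352 for each). Both genes rose after birth with the myelinating Schwann cell markers, whose median signal at P0 was 13.97 to 14.99 in AN and 15.26 to 15.42 in EN (exact permutation p = 0.1). The part of these markers was not tested.

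**Figure D3:**
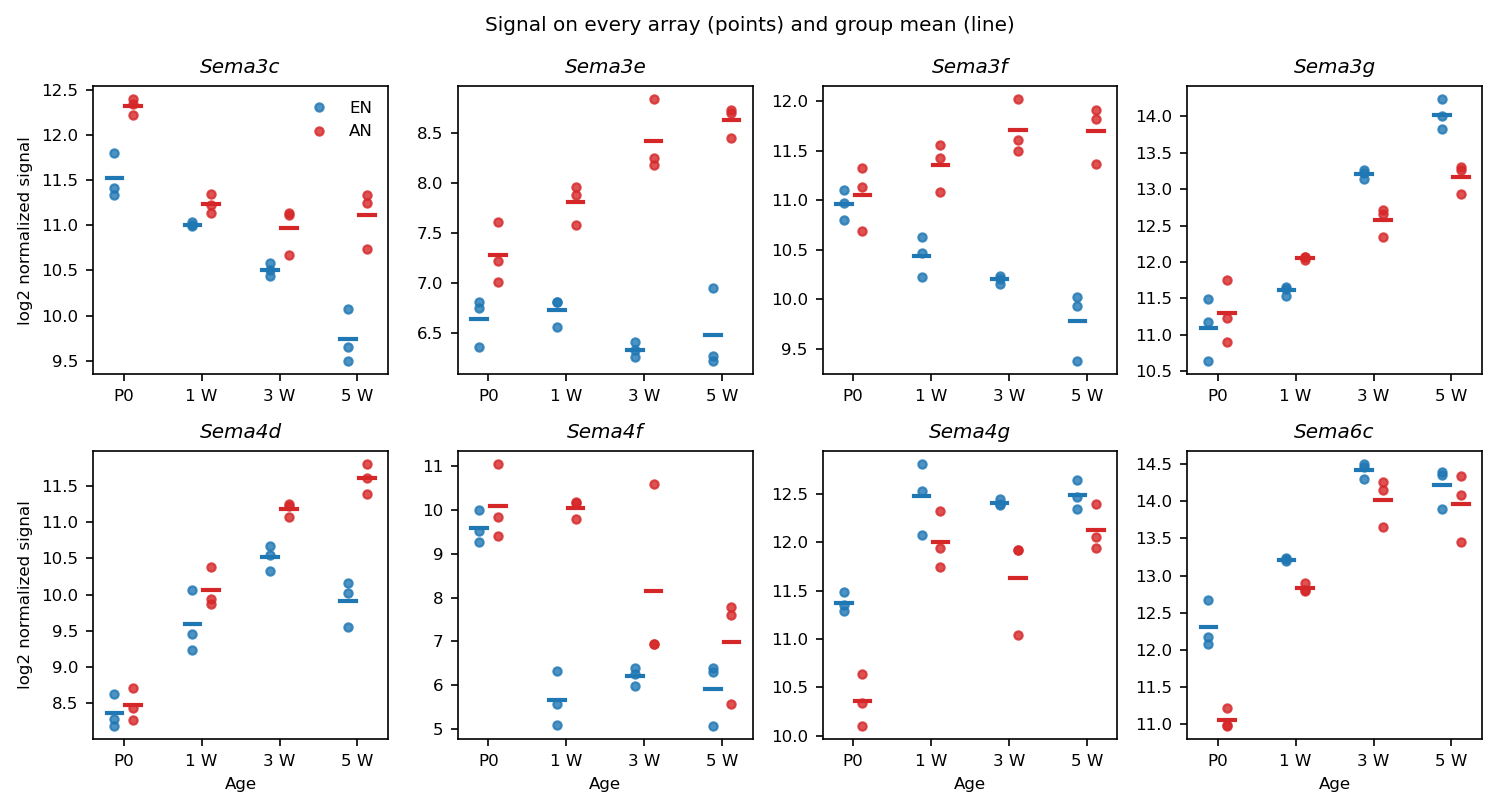
Log2 normalized signal of 8 genes on each of the 24 arrays (points) with group means (short lines), EN in blue and AN in red, against age. Sema3e and Sema3f part from 1 W on, Sema4d overlaps at P0 and is apart at 3 and 5 W, Sema6c and Sema4g are lower in AN at P0, and a single Sema4f point at 10.60 stands above the other AN arrays at 3 W.

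Nrp2, the neuropilin that binds Sema3f, was at 14.65, 14.88 and 14.79 in AN and 14.11, 14.30 and 14.19 in EN at P0 through its brightest probe. On that probe all AN arrays exceeded all EN arrays of the same age at P0, 1 W and 5 W. Its differences of 0.57, 0.40 and 0.42 did not pass (adjusted p = 0.0729, 0.149 and 0.0821), but did with the numbered pairs as a block (0.019, 0.0453 and 0.0221). The second Nrp2 probe was at 13.56, 13.05 and 13.63 in AN and 14.23, 13.54 and 13.91 in EN at 1 W. At 5 W it was at 13.40, 13.26 and 14.35 in AN and 14.03, 13.76 and 14.38 in EN. With the block the count of called genes was 6 in place of 3 at birth, 7 in place of 3 at 1 W, 11 in place of 3 at 3 W and 9 in place of 6 at 5 W. The share of all tested probes that passed with the block is not given here, so these counts cannot be read as particular to these genes. Among the genes it added were Plxna4 at 1 W (1.59, adjusted p = 0.0331), Plxnd1 at 3 W (0.29, 0.0261), Sema3c at 3 W (0.47, 0.0299), Sema3a at 3 W (0.78, 0.0175) and Sema5a at P0, 1 W and 3 W (−0.59, −0.55 and −0.47). For Nrp1 the difference between the fibres lay between −0.20 and 0.23 at all ages and did not pass.

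Sema4f, a membrane-bound class 4 semaphorin, had the largest difference of all at 1 W. Its signal was 9.80, 10.15 and 10.18 in AN and 5.09, 5.58 and 6.33 in EN, a difference of 4.38 ± 0.76 on the log2 scale or 20.8-fold (adjusted p = 0.00402). At P0 the fibres overlapped, at 9.83, 11.05 and 9.39 in AN and 9.26, 9.53 and 9.99 in EN. At 3 W AN was at 6.95, 6.93 and 10.60 and EN at 6.38, 5.99 and 6.25, so that the third AN array alone kept the P0 level. The change in the fibre difference from P0 to 1 W was 3.88 ± 1.07 and did not pass (adjusted p = 0.256).

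The sensory neuron markers moved with Sema4f across the arrays: every array whose marker median was 9.83 or more had Sema4f at 9.26 or more, except the first AN array at 5 W, with 10.26 and 7.80. All arrays below that median were at or below 7.60. Plxna4 was at 11.15, 10.92 and 11.29 in AN and 9.38, 9.38 and 9.81 in EN at 1 W, and at 9.29, 9.33 and 11.43 in AN at 3 W. Plxnc1, the receptor of Sema7a, was at 8.76, 8.75 and 11.09 in AN at 3 W and between 9.79 and 10.07 in AN at 1 W. Of the 20 markers, 11 of 19 tested were higher in AN at 1 W and 0 lower, where 4.0% of all tested probes were called. All 20 were above background on some array. The part of sensory neuron RNA in these 3 genes was not tested. Without the third AN array at 3 W the AN difference from P0 was −3.15 for Sema4f and −1.95 for Plxna4 (adjusted p = 0.000229 and 0.000322), in place of −1.93 and −1.25. For Sema3e, the third AN array at 3 W, with the highest marker median of its group, also had the highest signal (8.84), and the AN arrays at 5 W, with marker medians of 10.26, 8.93 and 7.85, had 8.71, 8.46 and 8.73. The part of these markers in the Sema3e differences was not tested either.

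**Figure D4:**
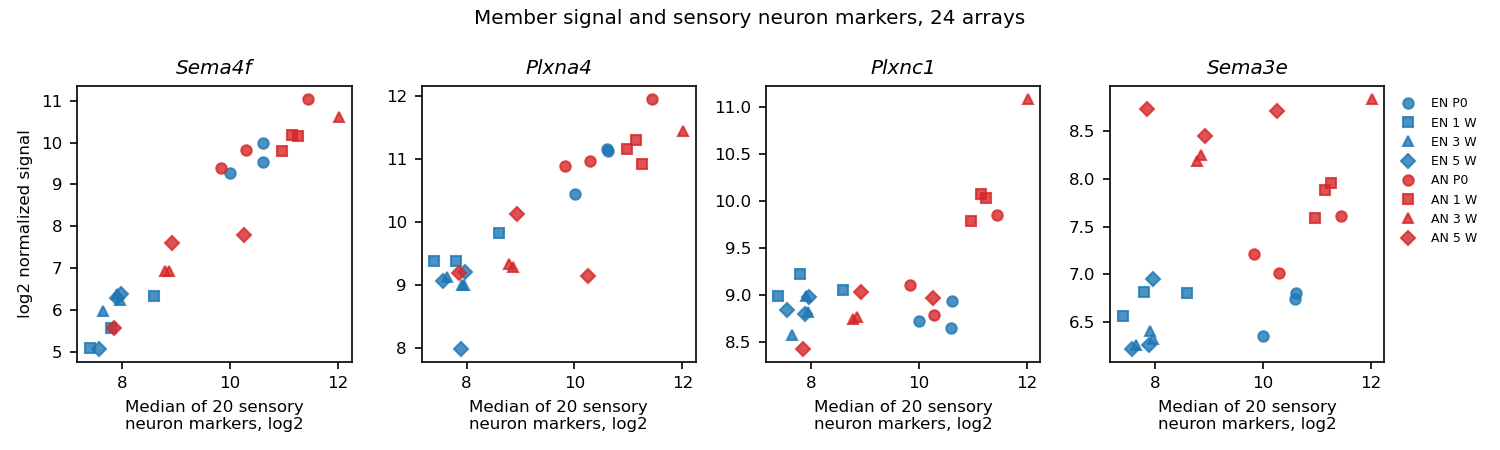
Log2 signal of Sema4f, Plxna4, Plxnc1 and Sema3e (vertical) against the median log2 signal of 20 sensory neuron markers (horizontal) on 24 arrays, EN blue and AN red, with a symbol for each age. Sema4f and Plxna4 climb with the markers, and the third AN array at 3 W, at a marker median of 12.02, has the highest Sema3e point at 8.84.

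Immature and non-myelinating Schwann cell markers (among them Ngfr, Ncam1, L1cam and Gap43) also separated the fibres after birth. The median of the 11 markers was 10.99 to 12.06 on the AN arrays and 9.19 to 10.24 on the EN arrays at 5 W, and 10.97 to 12.13 against 9.14 to 10.28 at 3 W. Of the 11, 8 were higher in AN and none lower at 1, 3 and 5 W. The shares of all tested probes called at those ages were 4.0%, 5.89% and 6.76%. At 5 W, 4 of 10 oligodendrocyte markers and 4 of 8 astrocyte markers were higher in AN too, with a median of 8.09 to 9.90 against 7.28 to 7.90 for the former. At 5 W the medians of these lists were higher in AN, as were Sema3e, Sema3f and Sema4d. At P0 the 11 immature markers had a higher median, of 12.05 to 12.48 in EN and 12.44 to 12.88 in AN. Sema4d was lower at P0 than at 5 W in both fibres through its brightest probe, and higher at P0 through its other probe. The part of these lists in the fibre differences of the 3 genes was not tested.

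Sema4d, the ligand of Plxnb1, overlapped between the fibres at birth, at 8.27, 8.71 and 8.43 in AN and 8.28, 8.64 and 8.19 in EN. At 3 W the groups no longer overlapped, at 11.25, 11.22 and 11.07 in AN and 10.55, 10.67 and 10.32 in EN, but the difference of 0.67 did not pass (adjusted p = 0.0726). At 5 W it was at 11.61, 11.80 and 11.39 in AN and 10.03, 9.55 and 10.16 in EN, a difference of 1.69 ± 0.21 or 3.22-fold (adjusted p = 7.95e-05). That difference had grown since P0 by 1.58 ± 0.30 (adjusted p = 0.0134). The rise since P0 was 3.13 in AN and 1.55 in EN at 5 W. All of this was read by the brightest probe. The other Sema4d probe went against the rise since P0, except in AN at 1 W (0.23, adjusted p = 0.516). It did not show the growth, while its fibre difference had the same sign.

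For 22 of the 33 genes the array holds more than 1 probe, and for some of them the probes did not tell the same course. The start of each probe, as given in the array design, is shown for 4 such genes and for the 2 genes with the clearest contrast. Capitals mark a run of alternating T and G, and the shown stretch of the second Nrp2 probe begins at base 24 of 60.
Sema3e A_52_P439407: tctgactagatactggagtgtctttgtctc
Sema3f A_55_P1998442: ctacccaggccacagccactcttgggttcc
Sema4d A_55_P2925077: tgccaaacaggccaattatgcaaaccttca
Sema4d A_55_P2103011: tttctacttggaactgtacacatttgaaaa
Sema5b A_52_P127115: actggtgtgtcctgcttcctggtttctggg
Sema5b A_55_P1994112: cagcaacaaaaaggatgttaagctgtggca
Sema4c A_55_P1953866: aaTGTGTGTGTGTGTGTGTGTGTGTtgtaa
Sema4c A_51_P170651: tgcaaggaagaggtttcaagatgtgggcgt
Sema4c A_55_P2740787: tggactgaagtttagaccctgggtgtctgc
Nrp2 A_52_P93910: tgagccagatcacgggaactcgagagcttt
Nrp2 A_55_P2800321: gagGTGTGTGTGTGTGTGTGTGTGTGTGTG
Nrp2 A_55_P2735175: tgacagaacatttccagatgacaagaactt

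The 2 Sema4d probes lie at chr13:51780903-51780962 and chr13:51796617-51796676 on the minus strand of mm9, and the accession of the first, brighter one was not found in the gene table used here. The second fell by 0.54 in EN and 0.55 in AN from P0 to 5 W (adjusted p = 0.0433 and 0.042). Between the fibres it gave 0.87 ± 0.22 in favour of AN at 1 W (adjusted p = 0.0289) and 0.42 at 5 W (adjusted p = 0.291). Its fibre difference had changed by −0.01 from P0 to 5 W. A statement on Sema4d as a gene therefore depends on the probe.

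Sema5b, the second class 5 semaphorin, was nearly flat through its brightest probe (chr16:35662805-35662864), between 8.23 and 9.09 on all arrays, with a fall of 0.58 in AN at 3 W as its single call. The next probe (chr16:35664281-35664340) was at 9.01 to 9.65 in EN and 9.75 to 10.06 in AN at P0. At 3 W it was at 4.89 to 5.14 in EN and 6.30 to 6.77 in AN, and at 5 W no EN array was well above background. EN at P0 was at least 19.8-fold above EN at 5 W, and AN fell by 4.24 ± 0.25 on the log2 scale (adjusted p = 1.29e-10). This probe was also higher in AN by 0.91 at 1 W and 1.50 at 3 W (adjusted p = 0.0458 and 0.00123), and at least 1.58-fold higher at 5 W. The probe A_55_P1994107 fell by 0.97 in EN and 1.49 in AN at 5 W, so 2 of the other 3 tested probes fell in both fibres at 5 W. The remaining probe, A_66_P113073, was at 5.15 to 5.43 in EN and 5.48 to 5.73 in AN at P0. At 3 W it was at 3.88 to 4.63 in EN and 4.04 to 4.91 in AN, where no array was well above background. At 5 W it was at 5.33, 5.30 and 2.67 in EN and 4.87, 4.79 and 3.74 in AN.

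Sema4c, another ligand of Plxnb2, was read at 14.22 to 15.51 on all arrays by the probe with the run of 23 alternating bases (chr1:36605998-36606057). That probe gave 0.00 in EN and −0.80 in AN at 3 W, and 0.33 in EN and −0.30 in AN at 5 W. The probe A_55_P2740787 (chr1:36612857-36612916) rose instead, by 1.38 in EN and 0.92 in AN at 3 W and by 1.16 and 1.04 at 5 W (adjusted p = 0.000346, 0.00886, 0.0015 and 0.00376). The run TGTGTGTGTGTGTGTGTGTG, searched as written on the probe strand, is in 46 of 56605 gene probes, or 0.0813%, and in 2 of the 79 probes of these genes, the Sema4c probe and the second Nrp2 probe. Over all 46 the median difference was −0.56 between AN and EN at 3 W, where the Sema4c probe gave −0.56 and the Nrp2 probe −0.65. Whether the run set these 2 probes' values was not tested.

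For Nrp2 the probe with the run (chr1:62843061-62843120) gave 0.53 in EN and −0.08 in AN at 5 W, neither past the test. The probe A_55_P2735175, which spans 62818403 to 62829910 on chromosome 1, rose in EN by 0.95 at 1 W and 0.76 at 3 W (adjusted p = 0.00191 and 0.00368). The fall of Nrp2 rests on the brightest probe (chr1:62865129-62865188). For Sema5a, the brightest probe and A_52_P465022 rose in all 6 comparisons, the latter by 3.39 in EN and 3.47 in AN at 5 W, whereas A_55_P2731216 passed none and was −0.60 in EN at 5 W. For Sema6d a dim probe, A_55_P2722438 (chr2, start 124333346), was higher in AN by 1.29 ± 0.29 at 3 W (adjusted p = 0.0129), and at 5 W, where no EN array was above background, at least 2.52-fold.

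**Figure D5:**
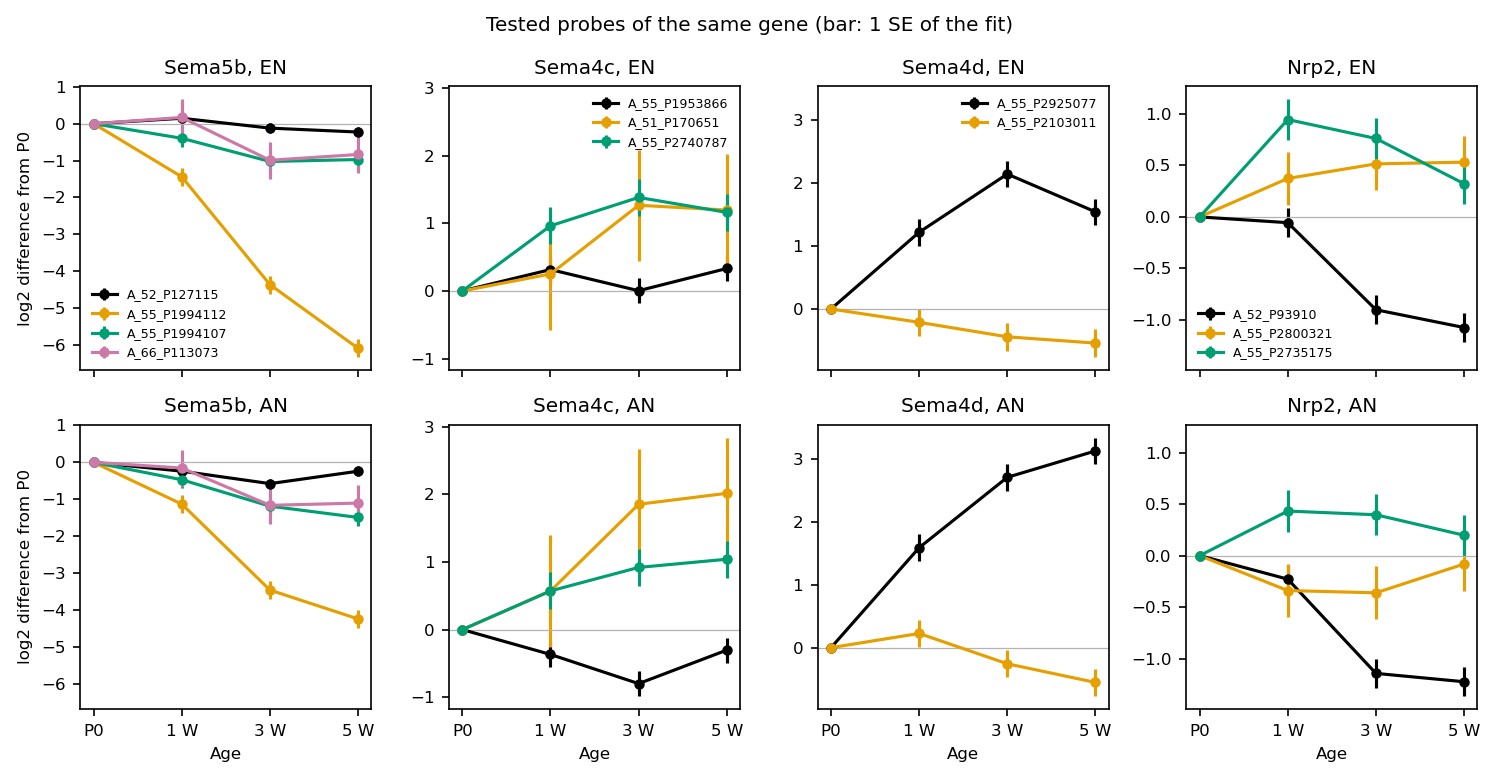
Log2 difference from P0 for each tested probe of Sema5b, Sema4c, Sema4d and Nrp2, EN above and AN below, against age; bars are 1 SE of the fit, and black is the brightest probe. The second Sema5b probe reaches −4.36 in EN at 3 W while the brightest gives −0.12, and the 2 Sema4d probes run in opposite directions.

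The partners of these receptors were read from 3 lists. Of 18 co-receptors and other binding partners, 16 were tested, and Flt4 and Timd2 were above background nowhere. In AN against EN, 1 was higher at P0, 4 were higher and 1 lower at 1 W, 5 and 1 at 3 W, and 4 and 0 at 5 W, with a median of 0.27 over the list at 5 W against −0.03 over all tested probes, of which 4.0%, 5.89% and 6.76% were called at 1, 3 and 5 W. Chl1, an adhesion molecule that couples Sema3a to Nrp1, was higher in AN by 2.31 ± 0.27 at 5 W. Ncam1, a neural cell adhesion molecule, was higher by 2.12 ± 0.13, Met, the hepatocyte growth factor receptor that associates with Plxnb1, by 1.98 ± 0.22, and L1cam, part of the Sema3a receptor complex, by 1.70 ± 0.21 (adjusted p = 3.34e-05, 3.34e-08, 2.16e-05 and 5.72e-05). Met rose in AN by 1.22 and fell in EN by 1.15 from P0 to 5 W. Ncam1, L1cam and Chl1 also stand in the list of immature Schwann cell markers.

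Of the 5 VEGF-family genes, whose proteins bind neuropilins or their partners, 0 passed in AN against EN by limma at any age, while 2, 1, 3 and 2 had an unadjusted p below 0.05 at P0, 1, 3 and 5 W. From P0 to 5 W, Pgf rose by 2.06 in EN and 1.27 in AN and Vegfb by 0.77 and 0.46, while Vegfd and Vegfa fell in AN by 0.98 and 0.59.

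Of 37 intracellular transducers of plexin signalling, all were tested. In AN against EN 0 were called by limma at P0 (4 with an unadjusted p below 0.05), 6 were higher and 1 lower at 1 W and again at 3 W, and 5 were higher and none lower at 5 W, against the same shares of all tested probes. The largest difference was that of Crmp1, one of the collapsin response mediator proteins that pass on the Sema3a signal, at 3.07 at 1 W, 2.87 at 3 W and 2.37 at 5 W. Its relative Dpysl5 was higher by 2.65, 1.98 and 1.26, and the kinase Pak3 by 1.91, 1.61 and 1.54. The median difference of the sensory neuron markers in this contrast was 2.80, 1.69 and 1.29 at the same ages, and their part in these values was not tested. From P0 to 5 W, 13 rose and 12 fell in EN, and 15 rose and 12 fell in AN, where 54.1% and 50.6% of all tested probes were called. Crmp1 fell by 5.69 in EN and 3.57 in AN, Pak3 by 2.66 and 1.26, and Dpysl5 by 2.47 and 1.63.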

How the data were processed

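Total RNA from 24 preparations was hybridized to Agilent one-colour arrays. The authors deposited the fluorescence intensity of each spot from Agilent Feature Extraction 10.7.1.1 (per the labels' processing notes) with its background and flags, and a log2 table of 56743 probes, made with GeneSpring's quantile normalization according to the methods. Each of the table's columns correlated at 0.9962 to 0.9999 with its own scanner file and at most 0.9882 with any other array, so its scale is log2 signal, and every column's median was 6.31, with no centring of genes. These log2 values are the main values, and the scanner intensities are an alternative. The gene names are those of the scanner files, whose headers give mm9 for probe positions; of the 33 chosen probes 29 have an accession listed under the same symbol in RefSeq's GRCm38.p6 gene table, and none under another. No mm9 annotation was used here, so exon or UTR is not stated.

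Of 56605 gene probes, the test took the 36409 that the scanner flagged well above background on every array of some group. One limma model (version 3.58.1, R 4.3.3) held all 8 group means (lmFit, eBayes; 18.35 degrees of freedom in total), with Benjamini-Hochberg adjustment over all tested probes, and called at an adjusted p below 0.05. The study's methods name limma with p below 0.05 and a fold change above 2, and do not state an adjustment or a formula. If a probe was well above background nowhere in the dimmer group, its fold is given as a lower bound, from the higher of the array's limit (3.71 to 5.87 in log2) and the probe's own value. Signal over background limits precision here: per array, median signals ran from 45.4 to 190.6 and local backgrounds from 23 to 46. The fit was tested on simulated data first.

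AN and EN arrays of the same number deviated together from their group means in all 12 pairs (r = 0.107 to 0.646), and shared a slide. The numbers were therefore taken as pairs, from the data. In the replicate block alternative the pair was the block for AN against EN and for changes in that difference. For the comparisons with P0 the block was the replicate number across all ages. Slides are those of the file headers, and scans followed the slides. The genes are all those of the rule, described in full where AN against EN passed or the change since P0 was large. Of each pathway list, up to 4 genes with the largest differences past the test are named. One gene of the marker lists is not reported here and was left out of its list. The genes and lists were chosen with earlier results of these data known. Alternatives were other scalings, filters, probes, call rules, blocks and leaving out each array. Python 3.11.15 with numpy, pandas, scipy and matplotlib was used for tables and figures.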

Additional observations from a re-analysis of the deposited data

Results flagged for a closer look

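Over all 68 tested probes of these genes, limma's test of a change in the AN-EN difference since P0 passed for at least 1 probe of 5 genes. Through the brightest probe alone it passed for 2 of 31 genes at 3 W and 3 at 5 W. Of all tested probes on the array, 0.615% and 1.14% passed at those ages. Sema3e gave a change of 1.46 from P0 to 3 W and 1.51 from P0 to 5 W on the log2 scale. Sema3f gave 1.41 and 1.83 through its brightest probe and 1.47 and 1.90 through the second. Sema4d gave 1.58 at 5 W through its brightest probe and −0.01 through the other. The second Sema5b probe gave 1.84 at 5 W, where EN was not well above background, and the brightest Sema5b probe was not called. For Sema6d, A_55_P2076861 gave 1.18 and A_55_P2722438 gave 2.07 at 5 W, the latter with EN not well above background, while the brightest Sema6d probe gave 0.92 (adjusted p = 0.11).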

How the results depend on the processing

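Over 136 called differences of single genes, the call and direction held in 1710 of 1870 repeats under the alternatives, 143 lost the call and 17 turned. Of these repeats 846 left out 1 array. The next brightest probe gave 84 repeats, of which 52 held, 16 lost the call and 16 turned. With the next brightest probe the differences from P0 at 1, 3 and 5 W of Sema4d came to −0.21, −0.44 and −0.54 in EN, and at 3 and 5 W to −0.26 and −0.55 in AN, and −0.0105 for its change in fibre difference. For Sema5a EN gave −0.27, −0.60 and −0.60, while AN gave −0.52, −0.65 and −0.21, for Nrp2 in EN 0.52 and 0.53 at 3 and 5 W, and in AN at 3 W −0.0214 for Sema3f and 1.85 for Sema4c. With the slide as a block, Sema6b in EN at 3 W was −0.10. The cause was not tested.

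The number of genes called in AN against EN at P0 was 1 without the filter on dim probes, 1 with 75th percentile scaling and 6 with the replicate block, and at 3 W it was 6 with 75th percentile scaling, 5 with normexp, 11 with the replicate block and 6 with the slide as a block. At 1 W the replicate block gave 7. The shares of all tested probes that passed under these alternatives are not given here. The slide block gave 16 in AN at 3 W against P0, and 5 for the change in fibre difference at 5 W. That change was called for 0 genes at 3 W without the filter, where the adjusted p of Sema3e and Sema3f was 0.0507 each, and for 4 at 3 W and 6 at 5 W with the replicate block. The replicate block lost no call. With a fold change above 2 the counts in EN were 7 at 1 W and 14 at 3 W, with adjusted or unadjusted p alike, and the unadjusted rule gave 1 change in fibre difference at 1 W. Leaving out 1 array at a time gave 0 to 2 genes in AN against EN at P0 (0 without AN replicate 2) and 0 to 2 changes in fibre difference at 3 W (0 without AN replicate 3 or EN replicate 2 of P0, or AN replicate 3 or any EN array of 3 W). The number of arrays limits the precision, and spots near background bound Sema3a and the second Sema5b probe in EN at 5 W.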
